A study of Mus musculus with 24 samples.

Results

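The response of the SV129 mouse cortex to CBE was examined on 6 arrays, 3 from CBE mice and 3 from PBS mice, out of 24 arrays in the series. CBE (conduritol B-epoxide) blocks the lysosomal enzyme that is deficient in Gaucher disease and serves as a chemical model of its neuronopathic form, so the model rests on an inhibitor and not on a mutation. The SV129 CBE group held male mice given CBE intraperitoneally at 25 mg per kg per day between postnatal days 8 and 18. The SV129 PBS group held male mice of the same age injected with phosphate-buffered saline over the same days as healthy controls, and all mice were 18 days old at collection. A coronal slice 1 mm thick with the cortex in it was frozen, so each array held RNA of every cell type in that slice. The other 18 arrays, from CBE and PBS mice of the strains FVB, C57 and C3H, were used for the estimate of the spread and for no comparison. Members were all probe sets with 1 gene symbol, 1 probe set per symbol, which gave 22180 genes. The values are log2 signals, on which a difference of 1 is a 2-fold difference. Each array is called by its group and its number in the labels.

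Glucosylceramide is a membrane lipid that lysosomes break down, and when the enzyme is blocked it builds up in neurons and phagocytes. Brains with this storage disease are known for activated microglia and astrocytes, for loss of neurons, and for interferon signalling, in which an antiviral messenger binds its receptor and switches on a set of target genes through STAT and IRF factors. Neurons also carry immediate-early genes, which are transcribed within minutes of firing and fade again, and adhesion proteins that hold axons and dendrites together while the young cortex is wired.

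The 6 arrays were close to one another, with Pearson correlations over all genes from 0.986 to 0.993. Array medians lay at 4.19, 4.22 and 4.21 on the CBE arrays, against 4.17, 4.14 and 4.16 on the PBS arrays, so the groups did not overlap in this overall scale. The tissue label was checked with Slc17a7, the vesicular glutamate transporter of cortical neurons, which was bright on every array. It had 11.26, 11.40 and 11.14 on the CBE arrays, against 11.31, 11.03 and 11.03 on the PBS arrays. Ttr, the leading transcript of the choroid plexus, had 4.42, 6.43 and 4.57 on the CBE arrays, against 4.96, 4.55 and 4.64 on the PBS arrays, so SV129 CBE 2 stood apart for it; the part of choroid plexus in the results was not tested.

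Of the 22180 genes, 25 differed between CBE and PBS at an adjusted p under 0.05 (limma with Benjamini-Hochberg adjustment), a share of 0.113%. The 3 genes that rose are 0.0135% of those tested and the 22 that fell are 0.0992%, and 16 of the 25 changed by at least 1.5-fold. The genes that rose were Ifit1 and Isg15, which interferon switches on, and Thrsp, which regulates lipid synthesis. Those that fell included the neuronal surface proteins Cntn6, Ntng1 and Tenm3, the integrin Itga4, the immediate-early gene Nr4a3, the oxytocin receptor, a potassium channel and several proteins of RNA processing and DNA binding. On every one of the 25 the 3 CBE arrays lay all on one side of the 3 PBS arrays. That was also so, without regard to the test, for 1446 genes with CBE above (6.52%) and 1993 with CBE below (8.99%). With 3 arrays in each group the smallest p of an exact two-sided permutation test is 0.1, and the calls therefore draw on a spread estimated over 8 groups. The labels do not say which mice shared a litter. The p-values set each change against the spread within these 8 groups, other strains included, and not against that of the SV129 arrays alone.

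**Figure D1:**
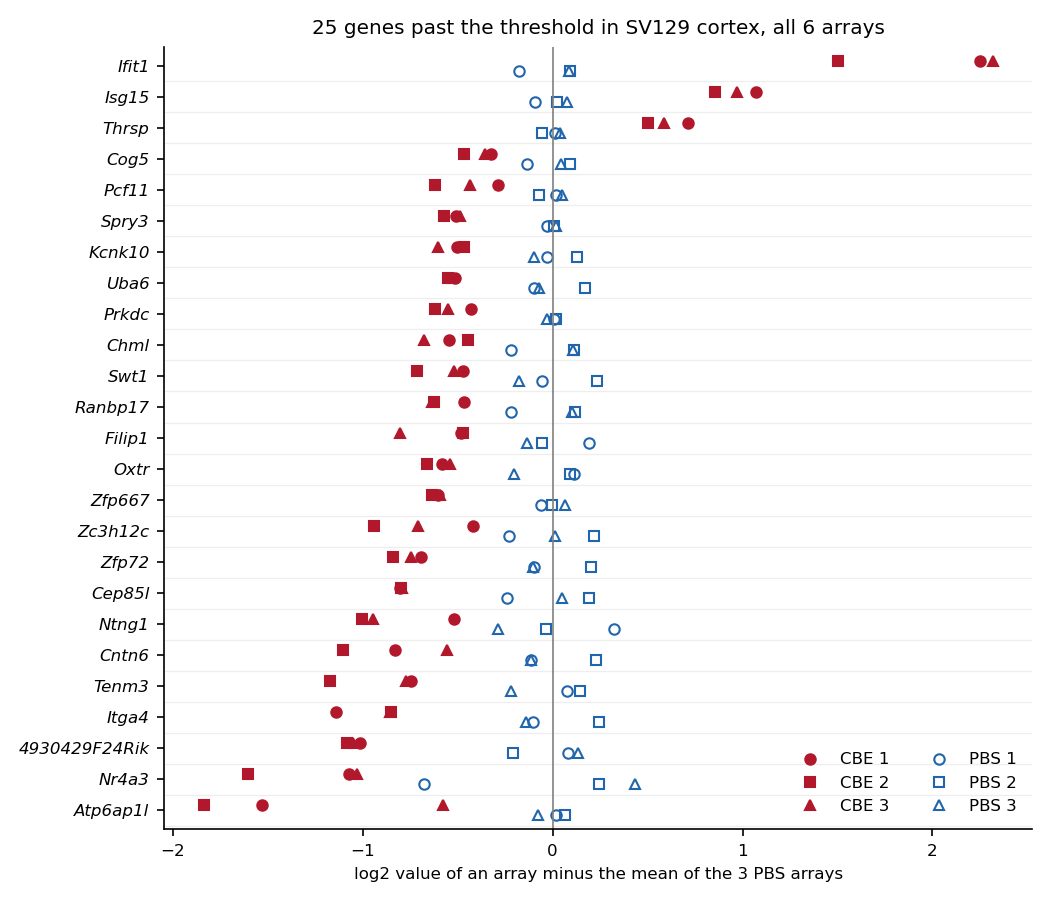
The 25 genes past the threshold run down the page from the largest rise to the largest fall. The x axis is the log2 value of an array minus the mean of the 3 PBS arrays of that gene; filled symbols are CBE arrays and open symbols PBS arrays, with 1 shape per replicate number. No gene has a CBE array among its PBS arrays, and SV129 PBS 1 lies nearest the CBE arrays for Nr4a3.

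Interferon-stimulated genes gave the largest rise. Ifit1 (probe set 17358832), which binds viral RNA that lacks the host's cap, had 6.48, 5.72 and 6.54 on the CBE arrays, against 4.05, 4.31 and 4.31 on the PBS arrays. The lowest CBE array was well above the highest PBS array. Ifit1 rose by 2.02 ± 0.30 (SE, adjusted p = 0.0045). In tissue RNA, more cells of a type and more RNA per cell cannot be told apart, nor can fewer cells and less RNA per cell. Isg15 (17434023), a ubiquitin-like protein that interferon induces and that is attached to other proteins, had 6.31, 6.10 and 6.21 on the CBE arrays, against 5.15, 5.26 and 5.32 on the PBS arrays. Its groups were tight and separate, and Isg15 rose by 0.97 ± 0.19 (adjusted p = 0.044).

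Further genes of the same system lay apart without passing the threshold. Usp18 (17462437), the protease that removes Isg15 and dampens the receptor, had 5.32, 4.56 and 4.99 on the CBE arrays, against 3.64, 3.76 and 3.51 on the PBS arrays. Rtp4 (17324446), an interferon-induced membrane chaperone, had 5.91, 5.72 and 5.96 on the CBE arrays, against 5.08, 4.70 and 5.22 on the PBS arrays. Both had all CBE arrays above all PBS arrays, with changes of 1.32 ± 0.30 (adjusted p = 0.074) and 0.86 ± 0.22 (adjusted p = 0.11). Oasl2 and Lgals3bp, named after their values were seen, showed the same separation at 1.19 (adjusted p = 0.13) and 0.92 (adjusted p = 0.17). On the CBE side SV129 CBE 2 was the lowest array for Ifit1, Isg15, Usp18, Rtp4, Oasl2 and Lgals3bp.

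Over the list of 36 measured interferon-stimulated genes, 2 rose and 0 fell, and 21 had all CBE arrays above all PBS arrays while 0 had them below. The share above was 58.3%, against 6.52% of all genes. The median change of the list was 0.28, against -0.0025 over all genes tested. The members that stayed near 0 included relatives of those that moved: Ifit3 at -0.00 and Ifit2 at 0.03, both with overlapping arrays, were chosen after their values were seen. Ifit genes resemble one another in sequence, which leaves room for shared signal between them. For 3 transcription factors of the pathway all CBE arrays lay above PBS without passing the threshold, with changes of 0.48 for Irf7 (adjusted p = 0.50), 0.23 for Stat2 (adjusted p = 0.46) and 0.30 for Irf9 (adjusted p = 0.56), also chosen after their values were seen.

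**Figure D2:**
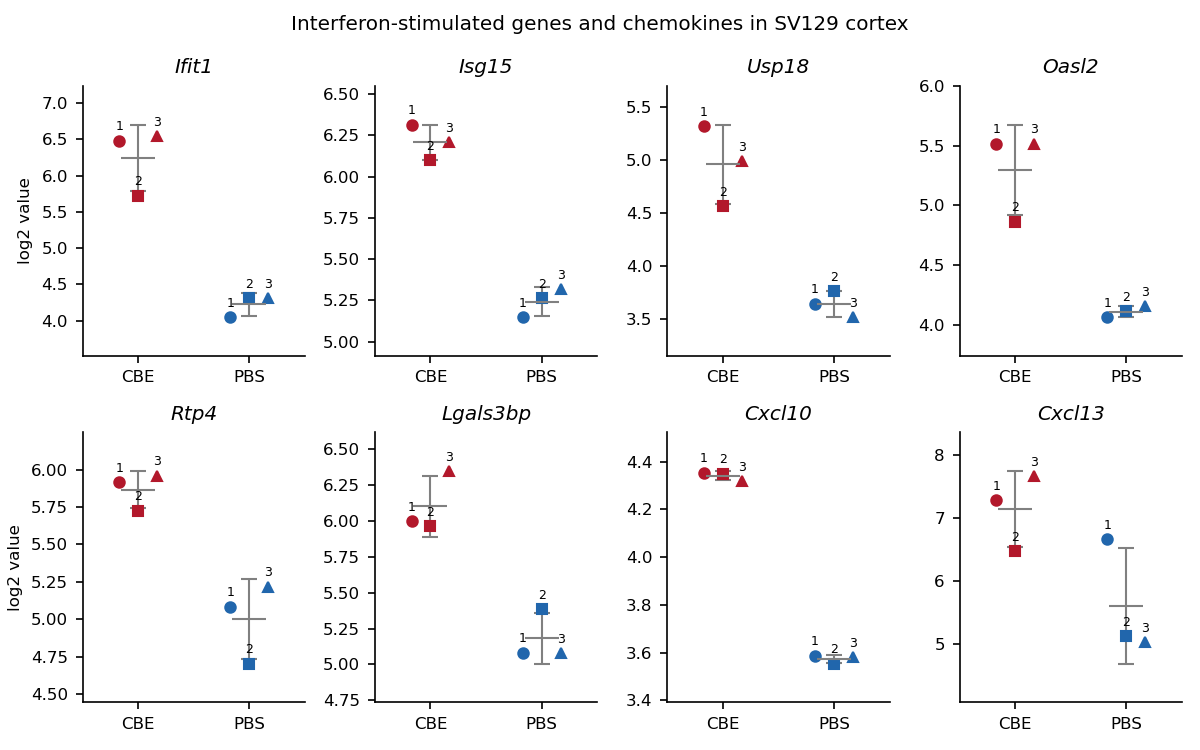
Log2 values of 6 interferon-stimulated genes and 2 chemokines, CBE arrays on the left of each panel and PBS arrays on the right; points are arrays numbered by replicate, the long bar is the mean and the whiskers are the SD of 3 arrays. The 7 genes other than Cxcl13 have no overlap, and for Cxcl13 SV129 PBS 1 (6.67) lies above SV129 CBE 2 (6.48). Each panel has its own y axis, which does not start at 0.

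The promoters of these genes were searched for the short DNA element, bound by STAT and IRF complexes, through which interferon acts. Its core, which is GAAA, 2 bases of any kind (NN) and GAAA again, read on either strand and with overlapping matches counted, was searched in windows of 250 bases before to 50 bases after the transcription start, taken from RefSeq (GRCm38.p6). It was found in 3.44% of 32851 windows and in 3.87% of the 16990 tested genes with a window. On the interferon list 14 of 26 genes with a window had it (53.8%), and 10 of the 16 whose CBE arrays all lay above PBS (62.5%). The list is made of interferon targets, so its share describes the list and does not test the CBE response. Of the called genes with a window, 2 of 3 that rose and 0 of 18 that fell had it. The 2 are Ifit1 and Isg15, which are members of that list. The windows of Ifit1 (chr19:34640639-34640938, plus strand, 2 matches), Isg15 (chr4:156200769-156201068, minus strand, 3 overlapping matches) and Cxcl10 (chr5:92348840-92349139, minus strand, 1 match) are shown as examples of genes that separate the groups and hold the element, and capitals mark the matches. Oasl2, whose groups were just as separate, had 0 matches in its window.
Ifit1: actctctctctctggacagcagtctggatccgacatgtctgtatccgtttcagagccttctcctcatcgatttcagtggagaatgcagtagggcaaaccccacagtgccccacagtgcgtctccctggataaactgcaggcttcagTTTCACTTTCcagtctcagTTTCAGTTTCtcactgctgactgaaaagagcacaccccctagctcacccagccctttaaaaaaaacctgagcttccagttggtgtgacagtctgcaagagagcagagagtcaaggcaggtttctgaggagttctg
Isg15: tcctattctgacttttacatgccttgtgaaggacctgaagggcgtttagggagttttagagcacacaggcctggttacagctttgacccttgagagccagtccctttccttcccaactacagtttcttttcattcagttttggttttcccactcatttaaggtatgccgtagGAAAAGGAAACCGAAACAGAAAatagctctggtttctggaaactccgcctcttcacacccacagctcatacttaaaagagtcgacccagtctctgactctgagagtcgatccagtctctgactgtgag
Cxcl10: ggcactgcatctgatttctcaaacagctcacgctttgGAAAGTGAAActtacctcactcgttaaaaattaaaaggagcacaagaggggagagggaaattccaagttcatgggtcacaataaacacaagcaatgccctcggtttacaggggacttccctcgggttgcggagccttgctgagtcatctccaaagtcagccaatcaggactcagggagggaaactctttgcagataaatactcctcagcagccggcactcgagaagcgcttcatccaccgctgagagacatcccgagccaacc
The matches describe the letters of these windows and do not show that a factor was bound. Thrsp, which also rose, had no match in its window.

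Chemokines, which call immune cells into tissue, had 0 of 25 measured members past the threshold in either direction and a median change of 0.10. All CBE arrays lay above PBS for 5 (20%, against 6.52% of all genes) and below for 0. Cxcl13 (17439367), which attracts B cells, had 7.29, 6.48 and 7.67 on the CBE arrays, against 6.67, 5.12 and 5.03 on the PBS arrays. SV129 PBS 1 lay within the CBE range, and the change was 1.54 ± 0.36 (adjusted p = 0.085). Cxcl10 (17449718), which draws T cells and whose window is printed above, had 4.36, 4.35 and 4.32 on the CBE arrays, against 3.59, 3.55 and 3.58 on the PBS arrays. Its groups were narrow and did not overlap, with a change of 0.77 ± 0.22 (adjusted p = 0.14). In the fit of the 6 SV129 arrays alone, with their own spread, 1 member of the chemokine list passed the threshold as a rise. Ccl12 and Ccl3, attractants of monocytes, had all CBE arrays above PBS with changes of 0.61 (adjusted p = 0.16) and 1.04 (adjusted p = 0.32). Cxcl10, Ccl12 and Ccl3 lay near the median of all probe sets, 4.18, a range where array values compress differences.

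Microglia, the brain's phagocytes, had no member past the threshold on any of their lists. Myeloid and phagocyte receptors had 7 of 24 members with all CBE arrays above PBS (29.2%, against 6.52% of all genes), 0 below, and a median change of 0.11. Tlr7, a sensor of RNA in endosomes, Pirb, an inhibitory receptor, and Cybb, the oxidase subunit with which phagocytes make superoxide, were among the 7, with changes of 0.40 (adjusted p = 0.39), 0.19 (adjusted p = 0.54) and 0.54 (adjusted p = 0.56). Pirb (CBE mean 3.64, PBS mean 3.46) and Cybb (4.22 and 3.68) lay near or below the median of all probe sets, 4.18. When all genes were ranked by mean level in 4 groups of 5545, the 2 dimmest had 9.32% and 9.49% all above, and 3.05% and 3.81% all below. Disease-associated microglial genes had 6 of 23 above (26.1%), 0 below, and a median of 0.11, while homeostatic markers had 0 of 15 above, 1 below, P2ry13, and a median of 0.05. With each array centred on its median the disease-associated list had 1 above and 1 below and the myeloid list 4 above and 0 below, and after quantile normalization they had 5 and 4 above and 0 below. Without SV129 CBE 2 or without SV129 PBS 1 the disease-associated median was 0.07, and the myeloid median was 0.07 without SV129 CBE 2 and 0.06 without SV129 PBS 3. Cd68, a lysosomal glycoprotein of phagocytes, had 6.42, 6.45 and 6.12 on the CBE arrays, against 6.25, 6.20 and 6.21 on the PBS arrays, a change of 0.11 ± 0.31 (adjusted p = 0.92). Gpnmb, which marks storage-laden macrophages, had 3.82, 3.96 and 4.10 on the CBE arrays, against 3.86, 4.07 and 3.92 on the PBS arrays, a change of 0.01 ± 0.52 (adjusted p = 0.995). The arrays of these genes were intermixed. Complement had 1 of 13 members above, C2, and antigen presentation 1 of 16 above, Psmb8, and 1 below, H2-Q4, whose relatives are too alike to tell its signal apart.

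Markers of blood cells had no member past the threshold. The list of lymphocyte markers had 0 of 15 past the threshold, 2 above and 0 below, with a median of 0.03; its member of smallest p, Gzma, a granule protease of cytotoxic cells, had 4.08, 4.0 and 4.05 on the CBE arrays, against 3.75, 3.61 and 3.86 on the PBS arrays, a change of 0.31 ± 0.08 (adjusted p = 0.11). Monocyte and neutrophil markers had 2 of 15 above, 0 below, and a median of 0.04. On both lists the share above was 13.3%, against 6.52% of all genes and 9.32% and 9.49% in the 2 dimmest groups. Only 2 erythroid markers were measured, and neither gave a separation.

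Astrocytes respond to injury by raising the filament protein Gfap. Gfap (17270354) had 6.73, 6.67 and 6.40 on the CBE arrays, against 6.79, 5.23 and 5.73 on the PBS arrays. SV129 PBS 1 was the highest of the 6, and the change was 0.68 ± 0.27 (adjusted p = 0.27). The reactive astrocyte list had 0 of 31 members past the threshold, 7 all above (22.6%, against 6.52% of all genes), 1 all below and a median of 0.10. The general astrocyte markers had 1 of 16 above, Aldh1l1, 2 below, Slc4a4 and Gli3, and a median of 0.07.

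The lysosome and the lipid pathway that CBE acts on showed no gene past the threshold. Lysosomal genes had 1 of 37 members all above, 1 all below, and a median of 0.02. On the glucosylceramide and ganglioside list 0 of 22 lay all above, 5 all below, and the median was -0.01 (0.03 after quantile normalization of the arrays). The share below was 22.7%, against 8.99% of all genes. Among the 11090 genes of higher mean level, which held 21 of the 22, it was 14.5%. Ugcg, the enzyme that makes glucosylceramide, had 8.91, 8.84 and 8.95 on the CBE arrays, against 9.02, 9.45 and 9.01 on the PBS arrays, a change of -0.26 ± 0.10 (adjusted p = 0.26). Sptlc2, a subunit of the first enzyme of sphingolipid synthesis, had a change of -0.24 ± 0.07 (adjusted p = 0.15) and St8sia1, which makes the ganglioside GD3, one of -0.33 ± 0.12 (adjusted p = 0.22). These 3 genes of synthesis, together with B4galt6, the lactosylceramide synthase, and Galc, which degrades galactosylceramide, are the 5 with all CBE arrays below. Gba2, a glucosylceramide-cleaving enzyme outside the lysosome, had 8.36, 8.28 and 8.16 on the CBE arrays, against 8.29, 8.13 and 8.46 on the PBS arrays, a change of -0.03 ± 0.07 (adjusted p = 0.91).

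Thrsp (17493432), a thyroid hormone target that promotes fatty acid synthesis, had 8.14, 7.93 and 8.01 on the CBE arrays, against 7.44, 7.37 and 7.47 on the PBS arrays. All CBE arrays were above, and Thrsp rose by 0.60 ± 0.12 (adjusted p = 0.044). The rest of its surroundings did not move with it past the test. Of 19 thyroid hormone responsive genes 1, Thrsp, rose, 0 fell, 3 were all above and 0 all below, with a median of 0.04. Of 21 genes of fatty acid and triglyceride synthesis 1, Thrsp again, rose, 2 were all above, 1 all below, and the median was -0.01. Fasn, the fatty acid synthase, had overlapping arrays at a change of 0.24 ± 0.12 (adjusted p = 0.41). Cholesterol synthesis had 0 of 19 past the threshold, 0 all above and a median of -0.09. It had 3 all below (15.8%, against 14.5% of the 11090 genes of higher mean level). Stard4, a sterol carrier, was among the 3 at -0.34 ± 0.11 (adjusted p = 0.19).

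Surface proteins that connect neurons were among the genes that fell. Cntn6 (17461240), a contactin anchored in the neuronal membrane, had 6.86, 6.59 and 7.14 on the CBE arrays, against 7.57, 7.92 and 7.58 on the PBS arrays. Ntng1 (17409480), a netrin-G protein carried by thalamic axons, had 7.81, 7.33 and 7.39 on the CBE arrays, against 8.65, 8.30 and 8.04 on the PBS arrays. Tenm3 (17509315), a teneurin that matches axons to their targets, had 8.53, 8.10 and 8.51 on the CBE arrays, against 9.35, 9.42 and 9.06 on the PBS arrays. In each of the 3 genes SV129 CBE 2 was the lowest array. Cntn6 fell by 0.83 ± 0.12 (adjusted p = 0.0045), Ntng1 by 0.82 ± 0.13 (adjusted p = 0.010) and Tenm3 by 0.90 ± 0.16 (adjusted p = 0.028). Itga4 (17372307), an integrin subunit that binds fibronectin and the vessel adhesion molecule VCAM and is carried by leukocytes, had 5.47, 5.76 and 5.76 on the CBE arrays, against 6.51, 6.86 and 6.47 on the PBS arrays. The groups lay well apart, and Itga4 fell by 0.95 ± 0.14 (adjusted p = 0.0045).

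On the list of 82 synaptic adhesion and axon guidance genes those 3 fell and 0 rose, 17 had all CBE arrays below and 1 had them above, and the median was -0.14. Cntn4, a further contactin, was among the 17 at -0.53 ± 0.11 (adjusted p = 0.055). The other members were chosen after their values were seen: the contactin Cntn5 and the contactin-associated Cntnap5b lay below at -0.69 (adjusted p = 0.12) and -0.72 (adjusted p = 0.074), and Lrrc4c, the synaptic partner to which Ntng1 binds, at -0.39 (adjusted p = 0.12). Nlgn2, the neuroligin of inhibitory synapses, was the 1 member above, at 0.24 (adjusted p = 0.35). Cadherins and protocadherins had 0 of 25 past the threshold, 2 above and 6 below, with a median of -0.16 that was -0.25 without SV129 CBE 1 and -0.09 without SV129 PBS 2. Of 34 integrins and leukocyte adhesion molecules Itga4 alone fell, 4 lay all below and 1 all above, and the median was -0.03. Among ionotropic glutamate and GABA receptors 0 of 28 passed, 0 lay above and 5 below, led by Gabrg1, Grik1, Grik2 and Gria4 at -0.51 (adjusted p = 0.066), -0.43 (adjusted p = 0.082), -0.35 (adjusted p = 0.11) and -0.26 (adjusted p = 0.13). The shares all below were 20.7% for adhesion and guidance genes, 24% for cadherins, 11.8% for integrins and 17.9% for these receptors. All genes had 8.99% below, and the 11090 genes of higher mean level had 14.5%.

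Of the 82 adhesion and guidance genes, 79 were above the median level of all genes, and brighter genes as a whole lay lower on the CBE arrays. When the genes were ranked by mean level in 4 groups of 5545, the median change was 0.03 in the dimmest and 0.03 in the next, then -0.05 and, in the brightest, -0.06. In the same order 517, 526, 211 and 192 genes had all CBE arrays above PBS, and 169, 211, 662 and 951 had them below. After quantile normalization, which gives every array 1 distribution, the counts above were 275, 287, 288 and 430 and the counts below 359, 410, 585 and 560. On that scale 13 adhesion and guidance genes still lay all below, 1 cadherin, and 4 receptors, while 18 interferon-stimulated genes lay all above. The shares below were 15.9%, 4% and 14.3%, against 10.3% of the 2 brighter groups together. The interferon share above was 50%, against 5.77% of all genes. In the test on that scale 19 genes passed, 4 higher and 15 lower, 16 of them among the 25. The other 9 of the 25, all of which fell, missed the threshold there: Spry3, Cog5, Swt1, Cep85l, Nr4a3, Chml, Atp6ap1l, Pcf11 and Uba6, with adjusted p from 0.056 for Spry3 to 0.084 for Uba6. With each array centred on its median instead, 143 passed, 7 higher and 136 lower, with all 25 among them.

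The other genes that fell follow by known role, an order chosen after their values were seen and tested for no theme. Oxtr (17469627), the oxytocin receptor, had 4.50, 4.42 and 4.54 on the CBE arrays, against 5.20, 5.17 and 4.88 on the PBS arrays. Kcnk10 (17283117), a leak channel for potassium, had 6.56, 6.60 and 6.46 on the CBE arrays, against 7.03, 7.19 and 6.97 on the PBS arrays. Both were clearly separated, with a fall of 0.60 ± 0.10 for Oxtr (adjusted p = 0.015) and of 0.53 ± 0.09 for Kcnk10 (adjusted p = 0.011). Spry3 (17546246), a Sprouty inhibitor of growth factor receptors, had 7.48, 7.42 and 7.50 on the CBE arrays, against 7.96, 8.00 and 8.01 on the PBS arrays. Its arrays scattered little in either group, and Spry3 fell by 0.52 ± 0.09 (adjusted p = 0.017).

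Prkdc (17323209), the catalytic subunit of the kinase that repairs broken DNA ends, had 6.30, 6.11 and 6.17 on the CBE arrays, against 6.73, 6.74 and 6.70 on the PBS arrays. Zfp72 (17294402), a zinc finger protein, had 4.95, 4.81 and 4.90 on the CBE arrays, against 5.55, 5.85 and 5.54 on the PBS arrays. Zfp667 (17473580), another, had 6.65, 6.61 and 6.65 on the CBE arrays, against 7.18, 7.25 and 7.31 on the PBS arrays. All 3 kept both groups within a narrow range. Prkdc fell by 0.53 ± 0.08 (adjusted p = 0.0045), Zfp72 by 0.76 ± 0.11 (adjusted p = 0.0045) and Zfp667 by 0.61 ± 0.10 (adjusted p = 0.016). Zc3h12c (17527016), of a family of enzymes that degrade inflammatory mRNA, had 6.40, 5.88 and 6.11 on the CBE arrays, against 6.59, 7.04 and 6.83 on the PBS arrays. Pcf11 (17493331), which ends transcripts at their poly(A) site, had 7.93, 7.60 and 7.78 on the CBE arrays, against 8.24, 8.15 and 8.27 on the PBS arrays. Swt1 (17228023), whose yeast counterpart is an RNA-cutting enzyme of the nucleus, had 5.86, 5.62 and 5.82 on the CBE arrays, against 6.28, 6.57 and 6.16 on the PBS arrays. SV129 CBE 2 was the lowest array of these 3 genes, which fell by 0.69 ± 0.12 for Zc3h12c (adjusted p = 0.016), 0.45 ± 0.09 for Pcf11 (adjusted p = 0.044) and 0.57 ± 0.11 for Swt1 (adjusted p = 0.044).

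Zinc finger genes were also counted by symbol, as Zfp followed by a number, a grouping chosen after the values were seen. Of 370 measured, 2 fell and 0 rose, 67 had all CBE arrays below and 9 above, and the median change was -0.10. The share below was 18.1%, against 8.99% of all genes and 14.5% of the brighter 11090 genes, which held 273 of the 370. Among those below without passing were Zfp382 at -0.62 (adjusted p = 0.056) and Zfp273 at -0.80 (adjusted p = 0.061). Many of these genes lie in clusters of similar copies, so that their probe sets can share signal.

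Atp6ap1l (17294775), named for its likeness to an accessory subunit of the proton pump that acidifies lysosomes, had 6.40, 6.09 and 7.35 on the CBE arrays, against 7.95, 8.00 and 7.85 on the PBS arrays. SV129 CBE 3 lay nearer the PBS arrays than its replicates did, and Atp6ap1l fell by 1.32 ± 0.26 (adjusted p = 0.044). Chml (17230174), which escorts Rab proteins of vesicle traffic to their lipid anchor, had 7.13, 7.23 and 6.99 on the CBE arrays, against 7.45, 7.78 and 7.78 on the PBS arrays. Cog5 (17274841), a subunit of the tethering complex of the Golgi, had 8.04, 7.89 and 8.00 on the CBE arrays, against 8.23, 8.45 and 8.40 on the PBS arrays. For both, SV129 PBS 1 was the PBS array nearest to CBE, and the falls were 0.56 ± 0.11 (adjusted p = 0.044) for Chml and 0.38 ± 0.07 (adjusted p = 0.028) for Cog5.

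Uba6 (17449176), an enzyme that activates ubiquitin, had 7.98, 7.94 and 7.96 on the CBE arrays, against 8.40, 8.67 and 8.42 on the PBS arrays. Ranbp17 (17261575), of the importin family that carries cargo into the nucleus, had 5.36, 5.20 and 5.19 on the CBE arrays, against 5.61, 5.94 and 5.93 on the PBS arrays. In both genes the CBE arrays lay close together and below every PBS array, and the falls were 0.53 ± 0.11 (adjusted p = 0.048) for Uba6 and 0.58 ± 0.10 (adjusted p = 0.023) for Ranbp17. Filip1 (17529185), which binds filamin and takes part in neuronal migration, had 5.31, 5.31 and 4.98 on the CBE arrays, against 5.98, 5.73 and 5.65 on the PBS arrays. Cep85l (17240819), a centrosomal protein, had 5.52, 5.53 and 5.53 on the CBE arrays, against 6.08, 6.52 and 6.37 on the PBS arrays. Filip1 fell by 0.59 ± 0.10 (adjusted p = 0.016) and Cep85l by 0.80 ± 0.15 (adjusted p = 0.039). The smallest adjusted p of all belonged to the clone 4930429F24Rik (17548765), a gene of no stated role that the naming rule leaves out and that was named after its values were seen. It had 5.16, 5.09 and 5.12 on the CBE arrays, against 6.25, 5.96 and 6.30 on the PBS arrays, and fell by 1.05 ± 0.13 (adjusted p = 0.0015). The other probe set of the same symbol had a change of 0.17 (adjusted p = 0.41 in the fit of every probe set with 1 symbol), so the fall was measured by 1 of its 2 probe sets.

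Immediate-early genes, the record of recent neuronal firing, had the lowest median of all lists. Nr4a3 (17413945), an orphan nuclear receptor of this class, had 6.14, 5.61 and 6.19 on the CBE arrays, against 6.54, 7.46 and 7.65 on the PBS arrays. SV129 PBS 1 lay close to the CBE arrays, and Nr4a3 fell by 1.24 ± 0.24 (adjusted p = 0.044). Of 32 measured members 1 fell and 0 rose, 29 had a negative change, and the median was -0.39. All CBE arrays lay below PBS for 9 members (28.1%) and above for 1. The share below was 8.99% over all genes and 14.5% over the brighter 11090 genes, which held 29 of the 32. Nr4a2, a relative of Nr4a3 and also a marker of deep cortical layers and the claustrum, had 6.79, 5.47 and 6.33 on the CBE arrays, against 9.87, 7.51 and 7.41 on the PBS arrays. Here SV129 PBS 1 was the highest array by far, and the change was -2.07 ± 0.56 (adjusted p = 0.12).

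In the classic members SV129 PBS 1 lay at or near the level of the CBE arrays. Fos, the transcription factor most used to map active neurons, had 5.40, 5.07 and 5.46 on the CBE arrays, against 5.55, 6.29 and 7.14 on the PBS arrays. Its lowest PBS array, SV129 PBS 1, was just above the highest CBE array. Arc, which adjusts synapses after firing, had 8.66, 7.63 and 8.74 on the CBE arrays, against 8.23, 9.56 and 10.15 on the PBS arrays. Egr1, a zinc finger factor induced by activity, had 8.76, 8.15 and 9.18 on the CBE arrays, against 8.31, 9.85 and 9.94 on the PBS arrays. In Arc and Egr1 the 2 PBS arrays numbered 2 and 3 were above all CBE arrays and PBS 1 lay among them. With all arrays the changes were -1.02 ± 0.31 for Fos (adjusted p = 0.15), -0.97 ± 0.37 for Arc (adjusted p = 0.25) and -0.67 ± 0.32 for Egr1 (adjusted p = 0.38). Over the whole list the median deviation of an array from the mean of the 6 was -0.14, -0.34 and -0.16 on the CBE arrays, against -0.16, 0.28 and 0.47 on the PBS arrays.

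**Figure D3:**
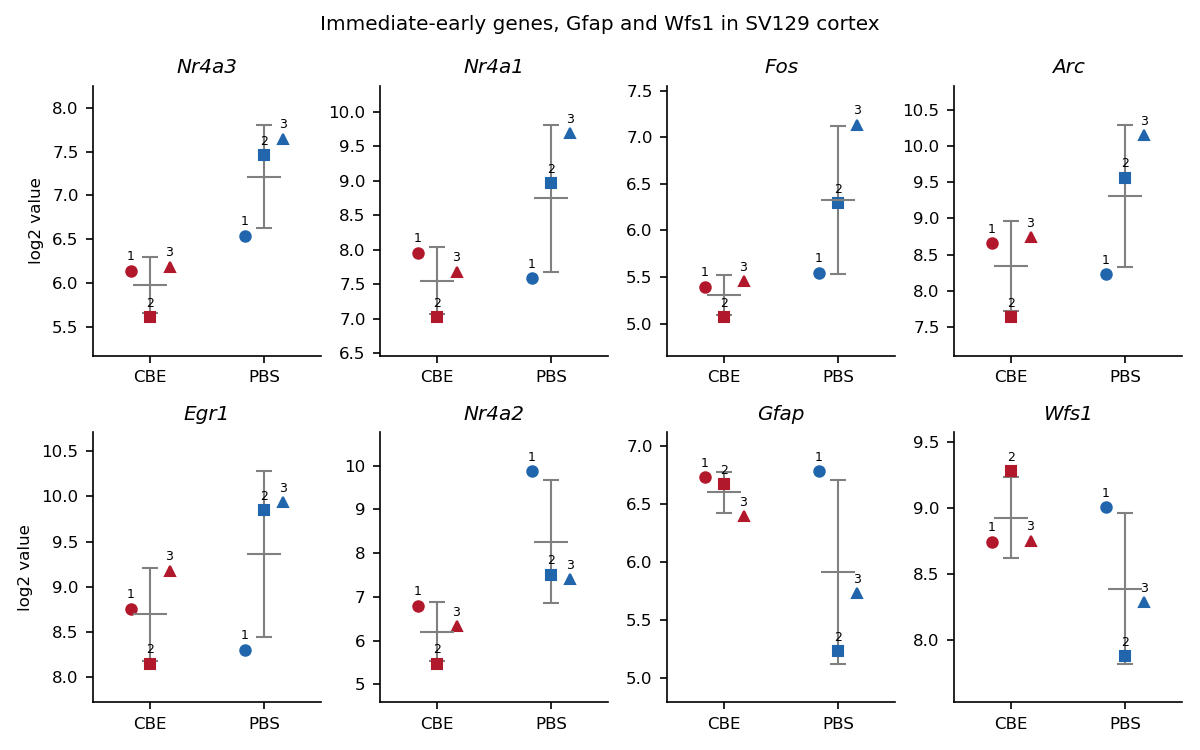
Log2 values of 6 immediate-early genes, of Gfap and of Wfs1, CBE arrays on the left of each panel and PBS arrays on the right; points are arrays numbered by replicate, the long bar is the mean and the whiskers are the SD of 3 arrays. PBS 1 sits at or near the level of the CBE arrays for Nr4a1, Fos, Arc, Egr1, Gfap and Wfs1 and far above every other array for Nr4a2 (9.87). Each panel has its own y axis, which does not start at 0.

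Immediate-early promoters are known for the cyclic AMP response element, through which the factor CREB acts. Its half-site, TGACG on either strand, which also lies inside the full element TGACGTCA, was found in 20.8% of all windows and in 26.8% of the tested genes with a window. On the immediate-early list 20 of 27 genes with a window had it (74.1%), and 7 of the 8 with a window whose CBE arrays all lay below PBS. The full element was in 1.79% of all windows, 2.65% of the tested genes, 3 of 27 genes of the list (11.1%) and 0 of those 8. Immediate-early promoters are known for this element, so these shares describe the list and do not test the CBE response. Of the called genes with a window, 8 of 18 that fell had the half-site and 2 of 18 the full element. Of the 3 that rose, 0 had either. The window of Nr4a3 (RefSeq, GRCm38.p6, chr4:48045055-48045354, plus strand) is shown because it is the list's called gene; capitals mark its 4 half-sites.
Nr4a3: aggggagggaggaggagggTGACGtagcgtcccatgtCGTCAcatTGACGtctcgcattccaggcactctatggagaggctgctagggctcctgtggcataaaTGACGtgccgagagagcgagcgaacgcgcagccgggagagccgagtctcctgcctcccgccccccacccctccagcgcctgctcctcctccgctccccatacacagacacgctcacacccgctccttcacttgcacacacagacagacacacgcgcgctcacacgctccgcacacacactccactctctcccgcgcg
The letters are a description of the window and not evidence of bound factor.

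The number of genes past the threshold moved with single arrays. Without SV129 PBS 1 the count was 219, 0.987% of the genes, with 43 higher and 176 lower in CBE; all 25 genes were among them. Without SV129 PBS 2 it was 8 and without SV129 PBS 3 it was 37. Leaving out SV129 CBE 1, 2 or 3 gave 42, 7 and 11. Omission of SV129 CBE 1 and of SV129 PBS 3 each added 23 genes, but new calls are listed here only for SV129 PBS 1. That omission gave the highest count, and SV129 PBS 1 lay within or above the CBE range for Cxcl13, Gfap, Arc and Egr1. Leaving it out therefore enlarged the changes of these genes. Adjusted p-values without SV129 PBS 1, here and below, describe that fit and add no support for a CBE response. The weight that limma estimates per array, lower for arrays that scatter more, was 0.60 for SV129 PBS 2 and 0.65 for SV129 PBS 1. The 219 included Cxcl13 (2.07 ± 0.31, adjusted p = 0.0045) and Gfap (1.12 ± 0.22, adjusted p = 0.022) as rises. They also held 10 of the 32 immediate-early genes as falls, among them Nr4a1 (-1.77 ± 0.28, adjusted p = 0.0063), Egr2 (-1.58 ± 0.38, adjusted p = 0.048), Arc (-1.51 ± 0.32, adjusted p = 0.032), Fos (-1.41 ± 0.29, adjusted p = 0.030), Fosl2 (-1.36 ± 0.26, adjusted p = 0.021) and Egr1 (-1.20 ± 0.25, adjusted p = 0.032). Further rises were Cd209a, a receptor of dendritic cells for sugars, by 1.06 (adjusted p = 0.017), Pkp2, a desmosome protein, by 0.91 (adjusted p = 0.039), Wfs1, of the endoplasmic reticulum, by 0.84 (adjusted p = 0.026) and Ywhah, an adaptor protein that binds phosphorylated partners, by 0.80 (adjusted p = 0.030).

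The lists moved with single arrays too. Without SV129 PBS 1 the immediate-early median was -0.59, and it was -0.25 without SV129 PBS 3. Adhesion and guidance genes had 9 of 82 falls without SV129 PBS 1, Cntn3, Lrrtm4, Cntn4, Efna5, Lrrc4c and Tenm2 in addition to the 3 called with all arrays, with a median of -0.12. The interferon list had 2 rises, Ifit1 and Isg15, as with all arrays, and a median of 0.25. Over the 6 single omissions the interferon median lay between 0.20, without SV129 CBE 1, and 0.32, without SV129 CBE 3. SV129 PBS 1 sat with the other PBS arrays for Ifit1, Isg15 and Thrsp, and at or near the CBE arrays for Gfap, Fos and Arc.

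**Figure D4:**
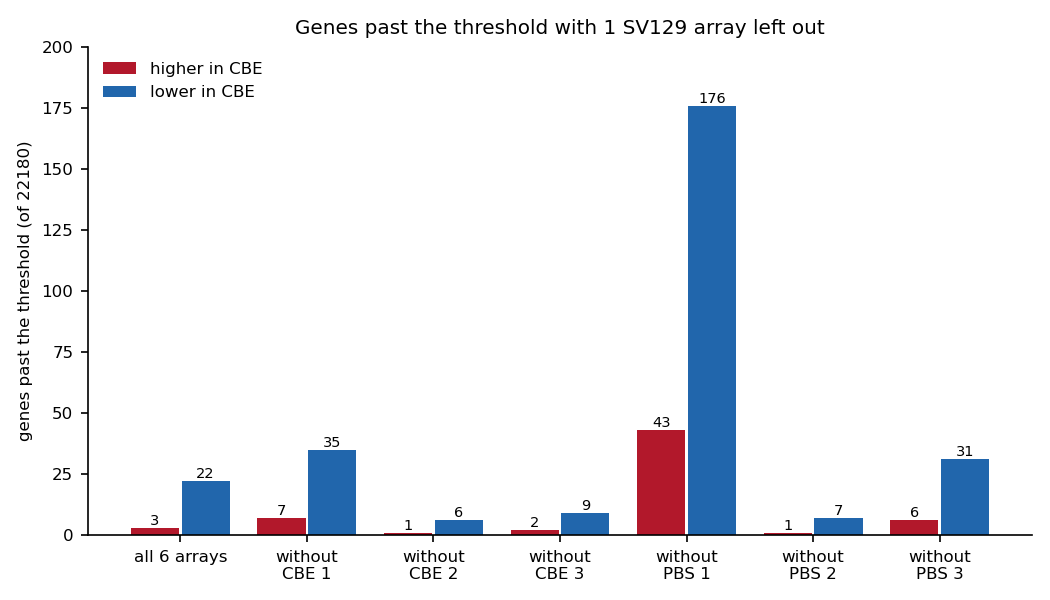
Number of genes past the threshold, of 22180, with all 6 SV129 arrays and with each left out in turn; red bars count genes higher in CBE and blue bars genes lower in CBE. The count is 3 higher and 22 lower with all arrays, and 43 higher and 176 lower without PBS 1.

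For the individual calls, 4 of the 25 kept an adjusted p under 0.05 without any 1 of the 24 arrays: Ifit1, Cntn6, Zfp72 and 4930429F24Rik. The other 21 lost it without at least 1 array. Leaving out SV129 PBS 1 ended 0 of the 25 calls, SV129 CBE 1 ended 6, SV129 PBS 3 ended 11, SV129 CBE 3 ended 17, SV129 CBE 2 ended 18 and SV129 PBS 2 ended 19. Prkdc was lost without 1 array, SV129 CBE 2 (adjusted p = 0.054), and Itga4 without 1, SV129 PBS 2 (0.052). Ntng1 was lost without SV129 CBE 2 or CBE 3, Kcnk10 and Filip1 without SV129 CBE 3 or PBS 2, and Oxtr without SV129 CBE 2 or PBS 2, with an adjusted p of at most 0.098. Tenm3, Zc3h12c and Spry3 were lost without SV129 CBE 2, CBE 3 or PBS 2, to at most 0.16. Ranbp17, Cog5 and Zfp667 were lost without any of these or SV129 PBS 3, to at most 0.17. The other 9 calls were also lost without single arrays of other strains, which enter the spread used for all 25. Isg15, Thrsp, Cep85l, Chml and Uba6 were lost without any SV129 array other than PBS 1, and without 7, 4, 3, 9 and 13 single arrays of other strains. Swt1 was lost without SV129 CBE 2, CBE 3 or PBS 2 and without 5 arrays of other strains. Nr4a3 and Pcf11 were lost without SV129 CBE 2, CBE 3, PBS 2 or PBS 3, and without 4 and 11 arrays of other strains. Atp6ap1l was lost without SV129 CBE 1, CBE 2, PBS 2 or PBS 3 and without 10 of the other strains. The highest adjusted p was 0.15 for Isg15, 0.18 for Thrsp and 0.22 over these 9 genes. The direction of all 25 was the same in every one of these fits. With the 6 SV129 arrays alone and their own spread, 4 genes passed, 3 of them higher. Of the 25 calls 3 were among them, Ifit1, Isg15 and 4930429F24Rik. Every other call therefore drew on the spread of the other strains.

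Past the calls, 162 genes had an unadjusted p under 0.001 and no overlap between the groups but missed the threshold, 36 higher in CBE and 126 lower. The largest of the lower ones was Glra3, a glycine receptor subunit, with 6.92, 6.55 and 6.86 on the CBE arrays, against 8.58, 7.74 and 7.60 on the PBS arrays and a change of -1.20 ± 0.24 (adjusted p = 0.051). Receptors for peptides were among the lower ones: Qrfpr at -1.01 (adjusted p = 0.10), the relaxin receptor Rxfp1 at -0.88 (adjusted p = 0.10) and Trhr, the receptor of thyrotropin-releasing hormone, at -0.72 (adjusted p = 0.056). Adcy8, a calcium-stimulated adenylyl cyclase, stood at -0.71 (adjusted p = 0.11), the repressor Zbtb10 at -0.74 (adjusted p = 0.059), Zfp944 at -0.60 (adjusted p = 0.095) and Tafa2, a secreted chemokine-like protein, at -0.59 (adjusted p = 0.10). On the higher side, beside Usp18 and Rtp4, stood Pkp2 at 0.82 (adjusted p = 0.074), the intestinal lactase gene Lct at 0.54 (adjusted p = 0.064), the trace amine receptor Taar7e at 0.53 (adjusted p = 0.064), Tcim at 0.52 (adjusted p = 0.11) and Igfbp6, which binds insulin-like growth factors, at 0.51 (adjusted p = 0.086). Drap1, a transcriptional corepressor, Cyp2d22, a drug-metabolising cytochrome, Fhod3, an actin-organising formin, Dclk3, a kinase, and the glucose transporter Slc2a10 had changes from 0.37 to 0.50 (adjusted p from 0.056 to 0.11). Lct, Taar7e, Tcim and Slc2a10 had levels under 5 on every array.

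Markers of regions and cell types were counted to see what else the slice held. Of 22 thalamus markers 1 fell, Ntng1, 3 lay all below, 2 all above, and the median was -0.06. Slc17a6, the glutamate transporter of the thalamus, had 7.56, 7.49 and 8.17 on the CBE arrays, against 8.21, 9.0 and 8.56 on the PBS arrays, a change of -0.85 ± 0.19 (adjusted p = 0.066), and it fell by 1.04 without SV129 PBS 1 (adjusted p = 0.016). Tcf7l2 and Gbx2, transcription factors that define the thalamus, had changes of -0.03 and 0.01 with overlapping arrays and were chosen after their values were seen. Whether the slices of the groups held different shares of thalamic tissue was not tested. Of 26 deep-layer cortical markers 1 fell, Cntn6, and 5 lay all below (19.2%, against 14.5% of the brighter 11090 genes) and 0 above. A negative change was seen in 23, and the median was -0.28. That median was -0.43 without SV129 CBE 1 and -0.13 without SV129 PBS 1. Tbr1, a transcription factor of the lower layers, had a change of -0.28 ± 0.08 (adjusted p = 0.15). The list's median deviation per array was 0.12, -0.22 and -0.34 on the CBE arrays, against 0.31, -0.20 and 0.15 on the PBS arrays, so SV129 PBS 2 lay with the lower CBE arrays and SV129 CBE 1 with the higher PBS arrays. Upper-layer markers had 0 of 19 past the threshold, 1 below and a median of 0.03. That median was -0.08 without SV129 PBS 1, where 2 members fell, and 0.08 without SV129 PBS 2. Without SV129 PBS 1 the upper-layer and deep-layer medians therefore lay close together.

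Myelin genes followed the same array pattern as the deep-layer markers. Their median deviation was 0.24, -0.32 and -0.14 on the CBE arrays, against 0.28, -0.22 and 0.13 on the PBS arrays, with 0 of 18 genes past the threshold and 0 separated. Excitatory neuron markers had 0 of 14 past the threshold, 1 above, Nrgn, and 1 below, Tbr1. Inhibitory interneuron markers had 0 of 23, 1 above and 1 below; Dlx5, which directs their development, had a change of -0.55 ± 0.17 (adjusted p = 0.15) and fell by 0.84 without SV129 PBS 1 (adjusted p = 0.0034). Hippocampal and striatal markers had 0 of 16 and 0 of 15 past the threshold, with medians of 0.00 and 0.01. Without SV129 PBS 1 the hippocampal median was 0.07. There 2 members of that list, Wfs1 and Lct, rose by 0.84 (adjusted p = 0.026) and 0.58 (adjusted p = 0.040). Whether the slices held different shares of hippocampal tissue was not tested. Markers of meninges and fibroblasts had 0 of 18 past the threshold and a median of 0.03. That median was -0.10 without SV129 CBE 2 and 0.18 without SV129 PBS 1. Their median deviation was -0.28, 0.32 and -0.05 on the CBE arrays, against 0.20, -0.28 and -0.04 on the PBS arrays.

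**Figure D5:**
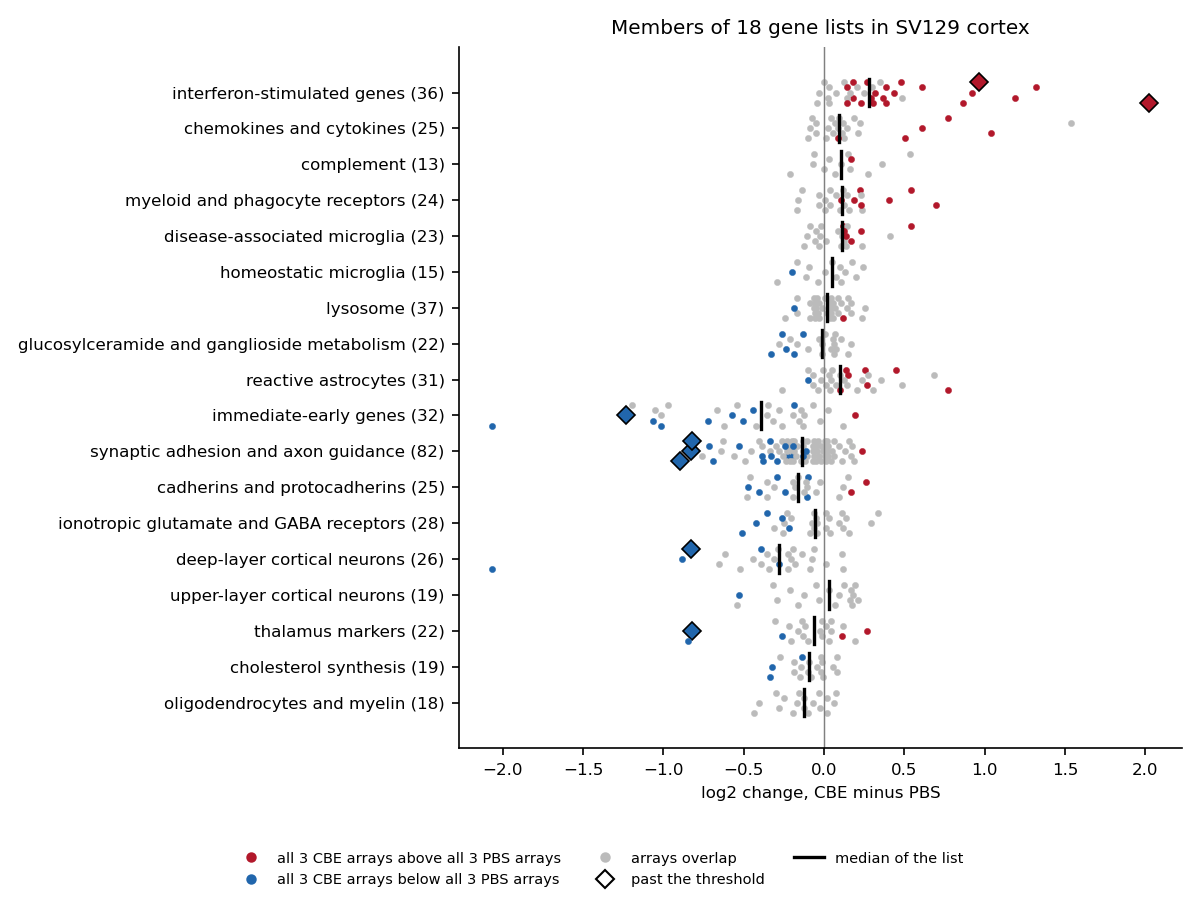
Log2 change, CBE minus PBS, of every measured member of 18 gene lists, with the number of members in brackets; red points have all 3 CBE arrays above the 3 PBS arrays, blue points all 3 below, grey points overlap, diamonds passed the threshold and the black bar is the list's median. The interferon list lies to the right with 21 red and 0 blue points, and the immediate-early list to the left with 9 blue and 1 red.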

How the data were processed

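RNA from 1 frozen brain slice per mouse was labelled with the WT PLUS kit and hybridised to 1 array per mouse, per the labels' protocols. The authors deposited 1 value per probe set and array; RMA and Partek are named, per the submitters' processing notes, without versions. The deposited numbers are log2 values, a base inferred from their range (highest value 14.09), so the depth is that of 1 array and precision is limited by the number of arrays.

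Of 41034 probe sets, 23521 had 1 gene symbol in the platform annotation, 1814 had several and 15699 had none. The probe set with the highest mean was kept for each symbol, which left 22180 genes, of which 1082 had a choice. Limma 3.58.1 in R 4.3.3 was fitted to all 24 arrays with 8 groups of 3 and no covariate, and the SV129 contrast of CBE minus PBS was tested with Benjamini-Hochberg adjustment over all genes at 0.05. The procedure was tested on simulated data. No filter on low values was applied in this fit. Of 1056 entries on 43 gene lists, 974 were measured. The members and lists were chosen with earlier results of these data known. Named are every gene past the threshold except predicted genes, clones, small RNAs and receptor families; the 12 largest rises and 12 largest falls among separated genes with an unadjusted p under 0.001; up to 4 members of smallest p per list; the 8 largest rises and 8 largest falls without SV129 PBS 1; and 11 fixed genes. Of the 25 genes past the threshold, 21 had a RefSeq promoter window. Alternatives covered the samples in the fit, the variance model, scaling, the filter, the probe sets used, array weights, the replicate number as a block, and omission of each array.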

Additional observations from a re-analysis of the deposited data

Results flagged for a closer look

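Among the 17513 probe sets with no symbol or several symbols, which the comparison of named genes leaves out, 4 passed an adjusted p of 0.05 between CBE and PBS in SV129 (limma with Benjamini-Hochberg adjustment). Of these, 3 were higher in CBE and 1 was lower. They drew attention as a signal in data outside the named genes, and their genes are not named here.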

How the results depend on the processing

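All 25 genes kept their direction under every alternative run, while the number past the threshold depended on the setting. The counts were 4 (1 lower) with the 6 SV129 arrays alone, 7 (0 higher, 7 lower, against 2828 at an unadjusted p under 0.05) with the ordinary linear model in limma, and 143 (7 higher, 136 lower) with each array centred on its median. Among the 12292 genes above the median level 60 passed (7 higher, 53 lower). A prior variance with a trend gave 5 higher, and every probe set of the table gave 13 lower. Leaving out 1 array at a time gave 7 to 219 genes, 1 to 43 higher and 6 to 176 lower. Without an array of another strain the count was 17 to 34. The cause of these shifts was not tested, apart from the fewer arrays or genes that the setting itself fixes. With the replicate number as a block 30 genes passed, 9 higher and 21 lower, 17 of them shared with the 25. Same-numbered samples had correlations of deviations of 0.0026, -0.19 and -0.026, and differently numbered ones had values from -0.21 to 0.24. So few values cannot show whether the numbers pair the mice. Of the 25 calls, 4930429F24Rik alone held in all settings; Zfp72 and Cntn6 were lost with the 6 SV129 arrays alone (adjusted p = 0.117 and 0.289) and Ifit1 in the ordinary linear model (0.0506). With 3 arrays per group and a median SE of 0.0989, small changes were not detectable.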

Other observations

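The lists of glucocorticoid-responsive and heat shock genes had no member past the threshold. Of 16 glucocorticoid-responsive genes 14 had a positive change, 1 had all CBE arrays above PBS and 0 below, and the median was 0.16, against -0.0025 over all genes. That median was 0.08 without SV129 CBE 1 and 0.25 without SV129 CBE 2. Heat shock genes had 1 of 19 above and 4 below (21.1%, against 14.5% of the brighter 11090 genes) with a median of -0.04. Of 22 neuropeptide genes 0 passed, 3 lay above and 2 below, with a median of -0.07. On the list of 47 potassium channels, which does not hold Kcnk10, 0 passed, 3 lay above and 3 below.

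Gene families were also grouped by symbol after the values were seen, and their shares stand beside those of dimmer and brighter genes as a whole. Olfactory receptors had 137 of 1105 members with all CBE arrays above PBS (12.4%) and 14 below (1.27%). Small nucleolar and micro RNAs had 72 of 562 above (12.8%) and 14 below (2.49%). Of the olfactory receptors 77 and of the small RNAs 178 lay above the median level of all genes. The 2 dimmer groups of 5545 genes had 9.32% and 9.49% above and 3.05% and 3.81% below. Ribosomal protein genes had 0 of 63 above and 3 below, and subunits of mitochondrial complex I had 5 of 42 above and 1 below, against 3.63% above and 14.5% below among the brighter genes.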
